A study of Mus musculus with 10 samples.

Results

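The genes described here encode the chains of the extracellular matrix of early embryos and the integrins that hold cells to it. They were taken by symbol from the deposited count table: collagen chains, laminin chains, integrin alpha and beta chains, fibronectin (Fn1), the nidogens Nid1 and Nid2, and perlecan (Hspg2). The rule found 85 of the table's 23429 entries and left out 5 that matched by name, the platelet integrin chain Itga2b and 4 genes of integrin-binding proteins. The 85 comprised 43 collagens (6 of type IV, 11 fibrillar and 26 others), 11 laminins, Fn1, both nidogens and perlecan, 17 integrin alpha chains, 9 integrin beta chains and the integrin-like gene Itgbl1. The rule reads symbols and no measured value, but it was chosen with earlier results of these data known.

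A basement membrane is a thin sheet of laminin and type IV collagen, each assembled from 3 chains, which nidogens and perlecan bind together. Fibronectin forms fibrils in the space around cells, is an early matrix of forming blood vessels, and is bound mainly by the integrin of Itga5 with Itgb1. An integrin is a pair of an alpha and a beta chain. Itgb1 pairs with the largest number of alpha chains, and the alpha chain largely sets which matrix is bound.

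The cells were mouse embryoid bodies, balls of differentiating embryonic stem cells, of the line iHA-Etv2. Its name and the labels describe an Etv2 transgene that doxycycline turns on, and all samples, untreated ones included, are of that line. Etv2 is an ETS-family transcription factor required for the first endothelial and blood cells. The 10 libraries of total RNA form 5 groups of 2: untreated at day 2, doxycycline at day 2, untreated at day 2.5, doxycycline at day 2.5, and doxycycline at day 2.5 labelled positive for Flk1, the VEGF receptor encoded by Kdr that marks haemato-endothelial progenitors. The other 8 libraries carry a negative entry for that label, and how their cells were handled is not given in the sources used here, nor are the dose, the length of treatment or the number of clones. Nothing in the labels says that the 2 replicates came from separate cultures, so p-values measure the spread between these libraries, which may be technical.

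Library totals were 18074070 to 36068329 counts. Etv2 stood at 255 to 507 CPM (each count divided by the TMM-scaled library size, in the usual CPM unit) in the 6 treated libraries and at 6.57 to 18.1 in the 4 untreated ones, and Kdr was highest in both Flk1-positive libraries. The 12 endothelial marker genes summed to 59.7 to 62.7 CPM in untreated, 828 to 860 in treated and 2071 to 2173 in Flk1-positive libraries of day 2.5. Kdr, the gene of the Flk1 label, is among the 12. It alone was 7.05 and 7.42, 405 and 433, and 1008 and 986 CPM in these groups, and that part of the sum follows the label. The 9 genes of the pluripotent epiblast summed to 3726 to 4045, 2393 to 2434 and 1836 to 1943. Those of the primitive streak and nascent mesoderm summed to 2664 to 3050, 817.9 to 851 and 747.4 to 782.5 CPM in the same groups. In bulk RNA, fewer cells of a type and less RNA per cell cannot be told apart, so each change below can be of either kind. The 2 doxycycline libraries of day 2 stood apart from each other, with a chi-square per gene of 32 where the other pairs had 3.33 to 9.65, and their difference followed exon length (Spearman's rho 0.45 over genes) and GC content (-0.34). The difference between the 2 Flk1-positive libraries also followed GC content (-0.38), and exon length less (0.12). From their replicate 1 to replicate 2 the tested matrix and integrin genes shifted by a median log2 of -0.11, and all genes by -0.01. The tested matrix and integrin genes are long, with a median of 7368 bases of exon against 4371.5 for all genes tested, and their median GC content was 53.6% against 50.5%. Every test was repeated without those trends and without each library in turn.

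Of the 85 genes, 73 passed the filter on low counts and were tested with edgeR's quasi-likelihood model over all 14548 genes that passed, with a Benjamini-Hochberg adjusted p under 0.05 as the threshold for a call. The 12 not tested (Col10a1, Col28a1, Col4a4, Col6a6, Col8a1, Itgad, Itgam, Itgax, Itgb2l, Itgb6, Itgbl1 and Lamc3) stayed at or below 0.586 CPM in every library, and Itgad, Itgax and Itgb6 had 0 counts throughout. Another 10 passed only because of the treated libraries, and 63 passed on the untreated libraries alone.

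At day 2.5 doxycycline moved the matrix and its receptors mainly upwards. Fibronectin, the type IV collagen chains Col4a1, Col4a2, Col4a5 and Col4a6, laminin alpha1 and alpha4, nidogen-1 and the integrin chains Itga1, Itga4, Itga9 and Itgb3 were higher with doxycycline, and the laminin alpha5 chain, nidogen-2, Itga8, Itgb5 and the fibrillar chains Col2a1 and Col5a1 were lower. In all, 30 of the 73 tested genes rose and 6 fell. Over all genes 16.1% were called higher and 13.8% lower in that comparison, against 41.1% and 8.22% of the 73. Their median log2 fold change was 0.64, and that of all genes 0. Among the 63 genes that pass the filter on untreated libraries alone, 28 rose and 6 fell. The other 2 that rose, Col4a3 and Itga2, passed the filter only because of the treated libraries, where they are high, so their calls add nothing to that count.

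Flk1-positive cells held a different balance. Of the 73 genes, 22 were higher and 15 lower than in the other doxycycline samples of day 2.5, with 20.5% of all genes called higher and 21.3% lower. The share called lower among the 73 was 20.5%, near the background, and the share called higher was 30.1%. The median log2 fold change was 0.14 for the 73 and 0 for all genes. Among the 63 genes that pass the filter on untreated libraries alone, 21 were higher and 15 lower. The other gene called higher, Col17a1, passed only because of the treated libraries, where it is high, so its call adds nothing to that count. The 30.1% includes it, and its call was lost with DESeq2's test (adjusted p = 0.0697). At day 2 doxycycline called 3 of the 73 genes higher (Col5a2, Itga1 and Itga3) and 2 lower (Lama5 and Hspg2), which is 4.11% and 2.74% beside 3.11% and 1.56% of all genes. These small counts moved with single libraries: 7 genes were called higher without doxycycline day 2 replicate 1, 1 was without untreated day 2 replicate 1, and 9 were called lower without doxycycline day 2 replicate 2 and 1 without untreated day 2 replicate 2. Of the 5 calls at day 2, only that of Itga3 held under every alternative setting tried, as did 26 of the 36 calls at day 2.5 and 21 of the 37 in the Flk1-positive comparison.

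**Figure D1:**
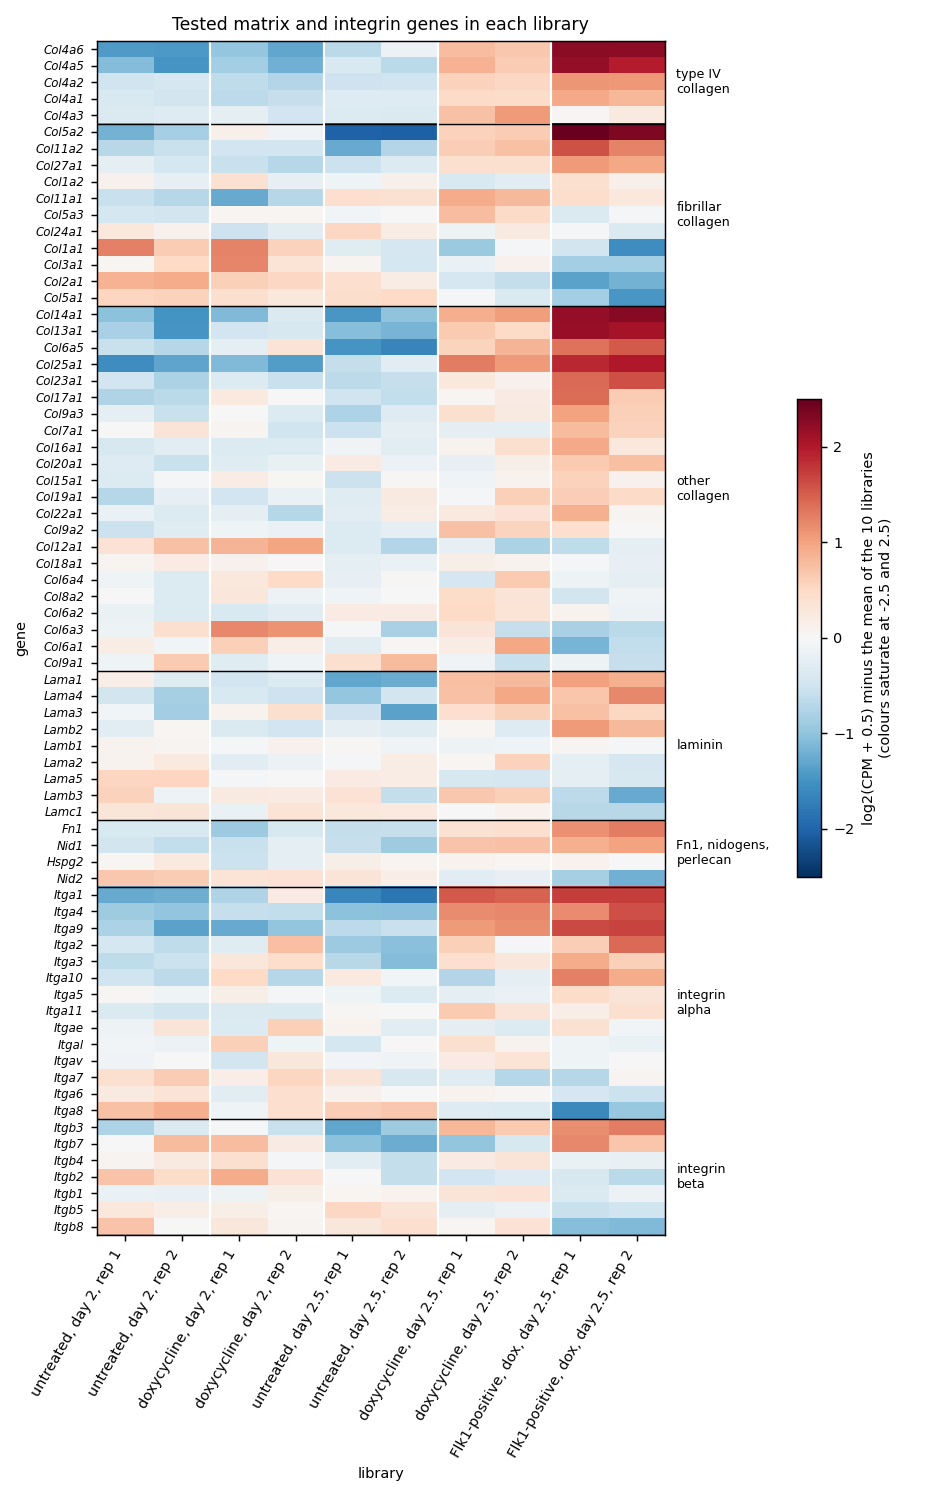
Heat map of 72 of the 73 tested genes (rows, by family) in the 10 libraries (columns), as log2(CPM + 0.5) minus the gene's mean over the 10 libraries, with colours saturating at -2.5 and 2.5. The rows with the highest mean in the Flk1-positive libraries are Col5a2 (2.41), Col4a6 (2.25), Col14a1 (2.24), Col13a1 (2.12), Col4a5 (2.08) and Col25a1 (1.94), and those with the lowest are Itga8 (-1.28), Col2a1 (-1.26) and Col5a1 (-1.16).

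The doxycycline libraries of day 2.5 enter both of these comparisons, so their calls are not independent and are set side by side only. Called higher in both were 15 genes: Fn1, Col4a1, Col4a2, Col4a5, Col4a6, Itga3, Itga9 and 8 other collagens. Called lower in both were 5: Nid2, Col2a1, Col5a1, Itga8 and Itgb5. Both calls held under every alternative for 9 of the 15 and for 2 of the 5, Nid2 and Col2a1; in the Flk1-positive comparison the call of Col11a2 was lost in 6 of 18 alternatives, that of Col25a1 in 4 and that of Col6a5 in 3, each time by leaving out single libraries. The 12 genes called higher with doxycycline but not called between Flk1-positive and other treated samples included Lama1, Lama4, Nid1, Itga1, Itga4 and Itgb3. Itgb1, Col18a1 and Col11a1 were called higher with doxycycline and lower in Flk1-positive samples, their first calls being lost in 11, 6 and 12 of 18 alternatives, and 23 genes were called in neither. The summed level of the 85 genes was 3720 and 3769 CPM in the untreated libraries of day 2.5, 4919 and 4955 with doxycycline and 6004 and 6071 in Flk1-positive ones, and was 3456 and 4015 with doxycycline at day 2 against 4126 and 4185 untreated. Fn1 alone gave 793 and 801, 1570 and 1614, and 2664 and 2898 CPM of the sums of day 2.5. From the other doxycycline to the Flk1-positive libraries the sum rose by no more than Fn1 did, so the remaining genes together did not rise there.

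Type IV collagen makes the network of every basement membrane. Its 6 genes lie in head-to-head pairs. The annotated starts of Col4a1 and Col4a2 on chromosome 8 differ by 21 bases (11312826 and 11312805, GRCm38) and cross, so the 2 genes overlap there. The starts of Col4a3 and Col4a4 on chromosome 1 lie 72 bases apart (82586921 and 82586849). Those of Col4a5 and Col4a6 on chromosome X lie 1309 bases apart (141475385 and 141474076). Reads of such neighbours cannot be told apart where transcripts overlap, since the strand setting of the counting is not given in the sources used here. Both widely used chains rose. Col4a1 was 109.6 and 105 CPM untreated and 90.5 and 95.8 with doxycycline at day 2. At day 2.5 Col4a1 was 115 and 115 CPM untreated, 199 and 197 with doxycycline and 278 and 256 in Flk1-positive libraries. The groups of day 2.5 did not overlap, and the log2 fold change was 0.79 ± 0.09 (adjusted p = 4.16e-06) with doxycycline and 0.43 ± 0.08 (adjusted p = 0.000802) in Flk1-positive samples. Its partner Col4a2 was 42.9 and 45.02 CPM untreated and 38.7 and 36.1 with doxycycline at day 2. At day 2.5 Col4a2 was 41.99 and 42.9 CPM untreated, 90.7 and 86.6 with doxycycline and 131 and 129 in Flk1-positive libraries. It showed the same order of groups, and changed by 1.06 ± 0.09 (adjusted p = 3.41e-07) with doxycycline and by 0.55 ± 0.09 (adjusted p = 0.000182) in Flk1-positive against other treated samples. At day 2 neither was called (log2 fold change -0.20 and -0.23).

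The less abundant pair rose by more. Col4a5 was 2.295 and 1.64 CPM untreated and 2.79 and 2.05 with doxycycline at day 2. At day 2.5 Col4a5 was 4.003 and 3.19 CPM untreated, 10.3 and 8.61 with doxycycline and 26.5 and 22.6 in Flk1-positive libraries. Its log2 fold change was 1.40 ± 0.22 (adjusted p = 0.000183) with doxycycline and 1.38 ± 0.20 (adjusted p = 6.67e-05) between Flk1-positive and other treated samples. Col4a6 was 1.69 and 1.64 CPM untreated and 2.46 and 1.86 with doxycycline at day 2. At day 2.5 Col4a6 was 3.13 and 4.72 CPM untreated, 9.48 and 8.81 with doxycycline and 27.3 and 26.8 in Flk1-positive libraries, with changes of 1.22 ± 0.21 (adjusted p = 0.000408) and 1.57 ± 0.19 (adjusted p = 1.47e-05). Both had also risen between the untreated days, by 0.85 ± 0.26 and 1.24 ± 0.26. The Col4a5 call there was lost without each of the 4 untreated libraries (adjusted p = 0.0656 to 0.237) and when the other groups were left out of the fit (0.0507). That of Col4a6 was lost without untreated day 2.5 replicate 2 (0.0793). As a share of all type IV chains, counted per kilobase of exon, Col4a5 and Col4a6 together made up 4.35% and 4.65% in untreated libraries of day 2.5, 6.3% and 5.69% with doxycycline and 11.4% and 11.1% in Flk1-positive ones, from 2.55% and 2.11% in untreated libraries of day 2. Col4a3, tested only because of its treated libraries, was near the floor, with 57 counts over both treated libraries and 2 over both untreated ones at day 2.5, a ratio of 18.9 (exact 95% interval 5 to 160, counting error only). That call was lost without untreated day 2.5 replicate 1 (adjusted p = 0.0505) or replicate 2 (0.0524).

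Etv2 and the other ETS factors recognise a GGAA core, so the stretches in front of the starts were read for it, as a description only. RefSeq promoter windows of 300 bases (250 before to 50 after a start, GRCm38.p6) were matched for 61 of the 85 genes, in 67 windows. The letters GGAA, on either strand (TTCC on the printed one), occurred in 66 of the 67 windows, 98.5%, and in 96.0% of all 32851 windows of the table. The longer ETS match CCGGAAGT, on either strand (ACTTCCGG on the other), was in 0 of the 67 and in 3.89% of all windows. So short a core is in nearly every window, and its presence did not separate the genes: it was in 22 of 22 windows of genes called higher with doxycycline at either day and in 4 of 5 of those called lower. A match is a run of letters and not a bound site, and the longer form contains the core.
The stretch before the start of Col4a6, which lies between it and Col4a5, is shown because this pair rose with doxycycline and again in Flk1-positive samples. It is the minus strand of chrX:141474077-141474326 (GRCm38.p6, 5′ to 3′), before the first exon, with each GGAA or TTCC in capitals:
Col4a6: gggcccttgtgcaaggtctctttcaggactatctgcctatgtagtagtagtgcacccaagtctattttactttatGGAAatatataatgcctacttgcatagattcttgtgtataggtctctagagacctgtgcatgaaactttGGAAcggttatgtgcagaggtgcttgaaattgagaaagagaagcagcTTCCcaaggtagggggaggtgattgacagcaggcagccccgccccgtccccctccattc

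Laminins join an alpha, a beta and a gamma chain. Lama1 with Lamb1 and Lamc1 is the first laminin of the embryo, Lama5 replaces Lama1 in many epithelial basement membranes, and Lama4 is the alpha chain typical of vessels. The alpha chains moved in opposite directions while Lamb1 was not called in any comparison. Lama1 was 21.6 and 15.3 CPM untreated and 13.7 and 15.1 with doxycycline at day 2. At day 2.5 Lama1 was 7.53 and 7.79 CPM untreated, 32.4 and 34.1 with doxycycline and 39.5 and 36.03 in Flk1-positive libraries. The untreated libraries of day 2.5 were the lowest and all treated ones of that day were above every other library. The log2 fold change was 2.12 ± 0.16 (adjusted p = 8.47e-08) with doxycycline at day 2.5, and Lama1 had fallen by 1.27 ± 0.17 on the log2 scale (adjusted p = 0.000234) between the untreated days. In Flk1-positive against other treated samples it was not called (0.18). Lama4 was 3.16 and 2.35 CPM untreated and 3.399 and 3.03 with doxycycline at day 2. At day 2.5 Lama4 was 2.09 and 3.19 CPM untreated, 7.94 and 9.39 with doxycycline and 7.68 and 11.1 in Flk1-positive libraries, a change of 1.71 ± 0.27 (adjusted p = 0.000193) with doxycycline at day 2.5, with overlapping values in Flk1-positive and other treated samples. Lama3, a chain of epithelial laminins, was 2.22 and 1.04 CPM untreated and 4.72 and 5.37 with doxycycline at day 2.5 (1.64 ± 0.36, adjusted p = 0.00274), a call lost without untreated day 2.5 replicate 2 (adjusted p = 0.0529).

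Lama5, the most abundant alpha chain, went the other way. It was 498 and 492 CPM untreated and 330 and 344 with doxycycline at day 2. At day 2.5 Lama5 was 393 and 389.5 CPM untreated, 259 and 256 with doxycycline and 292 and 258 in Flk1-positive libraries. Each treated group was below the untreated group of its day with no overlap. It changed by -0.55 ± 0.09 (adjusted p = 0.00081) at day 2 and by -0.60 ± 0.09 (adjusted p = 6.33e-05) at day 2.5, and did not differ in the Flk1-positive comparison beyond its error (0.10 ± 0.09). The call at day 2 was lost when the other groups were left out of the fit (adjusted p = 0.0601). Per kilobase of exon, Lama1 made up 2.18% and 2.27% of the 5 alpha chains in untreated libraries of day 2.5, 12.3% and 12.9% with doxycycline and 13.2% and 13.4% in Flk1-positive ones. Lama5 made up 96.7% and 96.6%, 83.6% and 82.2% and 82.9% and 81.6%, so it remained the main alpha chain in every library.
The stretch before the start of Lama5 is shown because it is the abundant laminin chain that was lower with doxycycline at both days. It is the minus strand of chr2:180225860-180226109 (GRCm38.p6, 5′ to 3′), before the first exon, with each GGAA or TTCC in capitals:
Lama5: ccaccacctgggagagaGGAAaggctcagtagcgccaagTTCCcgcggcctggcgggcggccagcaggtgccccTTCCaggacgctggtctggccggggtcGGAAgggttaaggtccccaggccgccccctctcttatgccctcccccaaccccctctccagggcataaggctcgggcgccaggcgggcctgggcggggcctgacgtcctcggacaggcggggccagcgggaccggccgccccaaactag

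Lamc1, Lamb2 and Lamb3 were not called with doxycycline at either day and were called in the Flk1-positive comparison. Lamc1, the gamma chain of most laminins, was 282 and 285 CPM untreated and 204 and 290.2 with doxycycline at day 2. At day 2.5 Lamc1 was 274 and 271 CPM untreated, 229 and 242 with doxycycline and 142 and 141 in Flk1-positive libraries. The Flk1-positive libraries were the lowest of all 10, with a log2 fold change of -0.74 ± 0.12 (adjusted p = 0.000226) against the other treated samples. Lamb3, a beta chain of epithelial laminins, was at 1.81 and 1.68 CPM in the other doxycycline samples and 0.413 and 0.106 in the Flk1-positive ones, a call lost without Flk1-positive replicate 2 (adjusted p = 0.0612). Lamb2, a beta chain found in vessel and muscle basement membranes, was the only laminin gene called higher there: it was 27.6 and 21.3 CPM in the other doxycycline samples and 56.04 and 47.3 in the Flk1-positive ones (1.08 ± 0.15, adjusted p = 4.62e-05), and its share of the 3 beta chains per kilobase was 17.3% and 13.7% and then 27.2% and 25.2%. Lamb1 stayed between 213 and 252 CPM in all 10 libraries. Lama2 was tested, never above 0.809 CPM, and not called.

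Nidogens link laminin to type IV collagen, and the 2 genes moved in opposite directions. Nid1 was 23.1 and 20.5 CPM untreated and 21.4 and 26.7 with doxycycline at day 2. At day 2.5 Nid1 was 21.2 and 17.03 CPM untreated, 52.4 and 53.1 with doxycycline and 58.9 and 64.7 in Flk1-positive libraries. All 4 treated libraries of day 2.5 lay above the other 6. It changed by 1.47 ± 0.14 (adjusted p = 8.97e-07) with doxycycline at day 2.5, and by 0.23 ± 0.13 in the Flk1-positive comparison, which was not called. Nid2 was 254 and 248 CPM untreated and 201 and 206 with doxycycline at day 2. At day 2.5 Nid2 was 199 and 179 CPM untreated, 130.2 and 139 with doxycycline and 89.5 and 69.2 in Flk1-positive libraries. It was lower with doxycycline (-0.49 ± 0.11, adjusted p = 0.00289), lower again in Flk1-positive samples (-0.76 ± 0.11, adjusted p = 6.79e-05), and lower at day 2.5 than at day 2 in untreated samples (-0.41 ± 0.11, adjusted p = 0.0163). The last call was lost without untreated day 2 replicate 1 (adjusted p = 0.114) or 2 (0.0888) or untreated day 2.5 replicate 2 (0.173). Nid1 therefore made up 7.36% and 6.63% of nidogen per kilobase in untreated libraries of day 2.5, 23.1% and 22.2% with doxycycline and 32.9% and 41.1% in Flk1-positive ones. Perlecan, the heparan sulfate proteoglycan of basement membranes, was at 204 to 224 CPM in all 6 libraries of day 2.5 and was called in neither comparison there. At day 2 Hspg2 was 209 and 241 CPM untreated and 139.8 and 175 with doxycycline (-0.52 ± 0.11, adjusted p = 0.0104), and this call was lost with length and GC trends removed (adjusted p = 0.0616), when the other groups were left out of the fit (0.223) and without untreated day 2 replicate 2 (0.203).

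**Figure D2:**
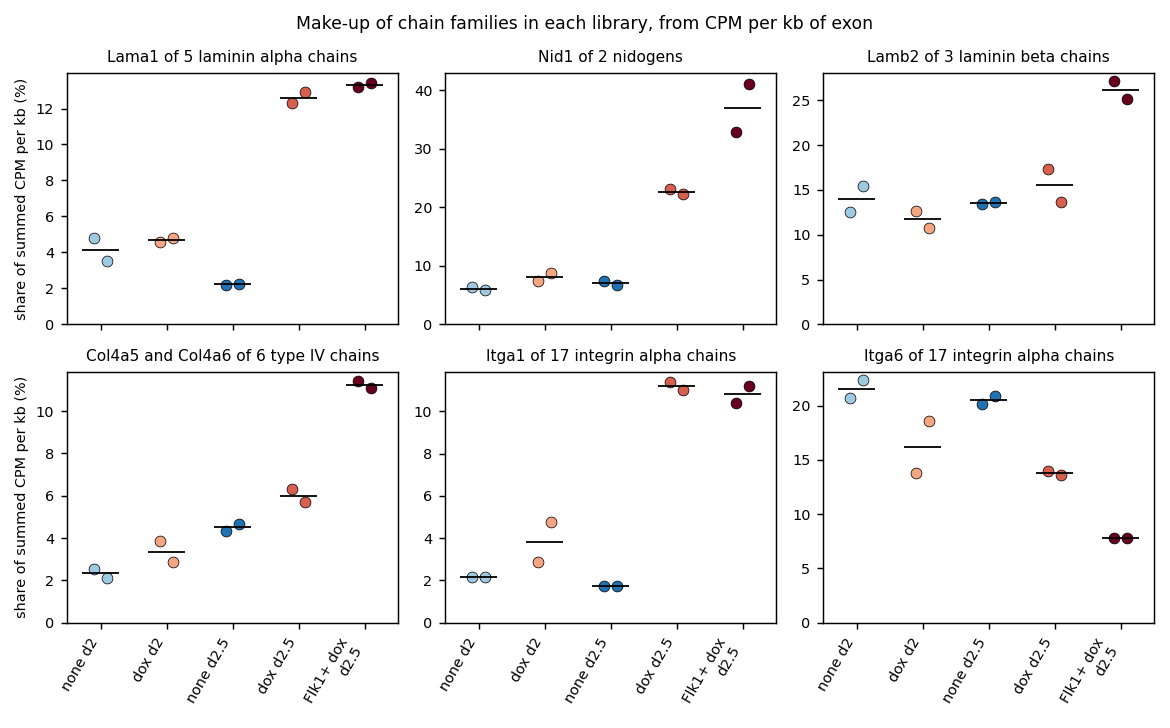
Share of chain families in each library, in percent of the family's summed CPM per kilobase of exon (linear axes from 0), with dots for libraries and lines for group means. Lama1 is 2.18% and 2.27% of laminin alpha chains in untreated and 13.2% and 13.4% in Flk1-positive libraries of day 2.5, Nid1 is 7.36% and 6.63% and 32.9% and 41.1% of nidogen, and Itga6 is 20.1% and 20.9% and 7.77% and 7.82% of integrin alpha chains.

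Fibronectin had the most counts of the 85 genes in every library. Fn1 was 919.5 and 924 CPM untreated and 641 and 913 with doxycycline at day 2. At day 2.5 Fn1 was 793 and 801 CPM untreated, 1570 and 1614 with doxycycline and 2664 and 2898 in Flk1-positive libraries. The groups of day 2.5 did not overlap, and Fn1 rose 2-fold with doxycycline (log2 fold change 0.998 ± 0.12, adjusted p = 1.55e-05) and 1.75-fold more in Flk1-positive samples (0.81 ± 0.12, adjusted p = 9.92e-05). At day 2 it was not called (-0.25), and doxycycline day 2 replicate 1 was the lowest of all libraries. Per kilobase of exon, Itgb1 led the 85 genes in all groups but the Flk1-positive one, at 118 CPM per kilobase in untreated samples of day 2.5 against 68.2 for Fn1. Fn1 led in Flk1-positive samples, at 238 against 94.1 for Itgb1, and made up 32.7% and 35.5% of the summed level of the 85 genes per kilobase, from 13.4% and 13.7% in untreated samples of day 2.5. With doxycycline at day 2.5 the levels of these 2 genes were close, at 143 for Itgb1 (libraries at 141 and 144) and 136 for Fn1 (134 and 138).

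**Figure D3:**
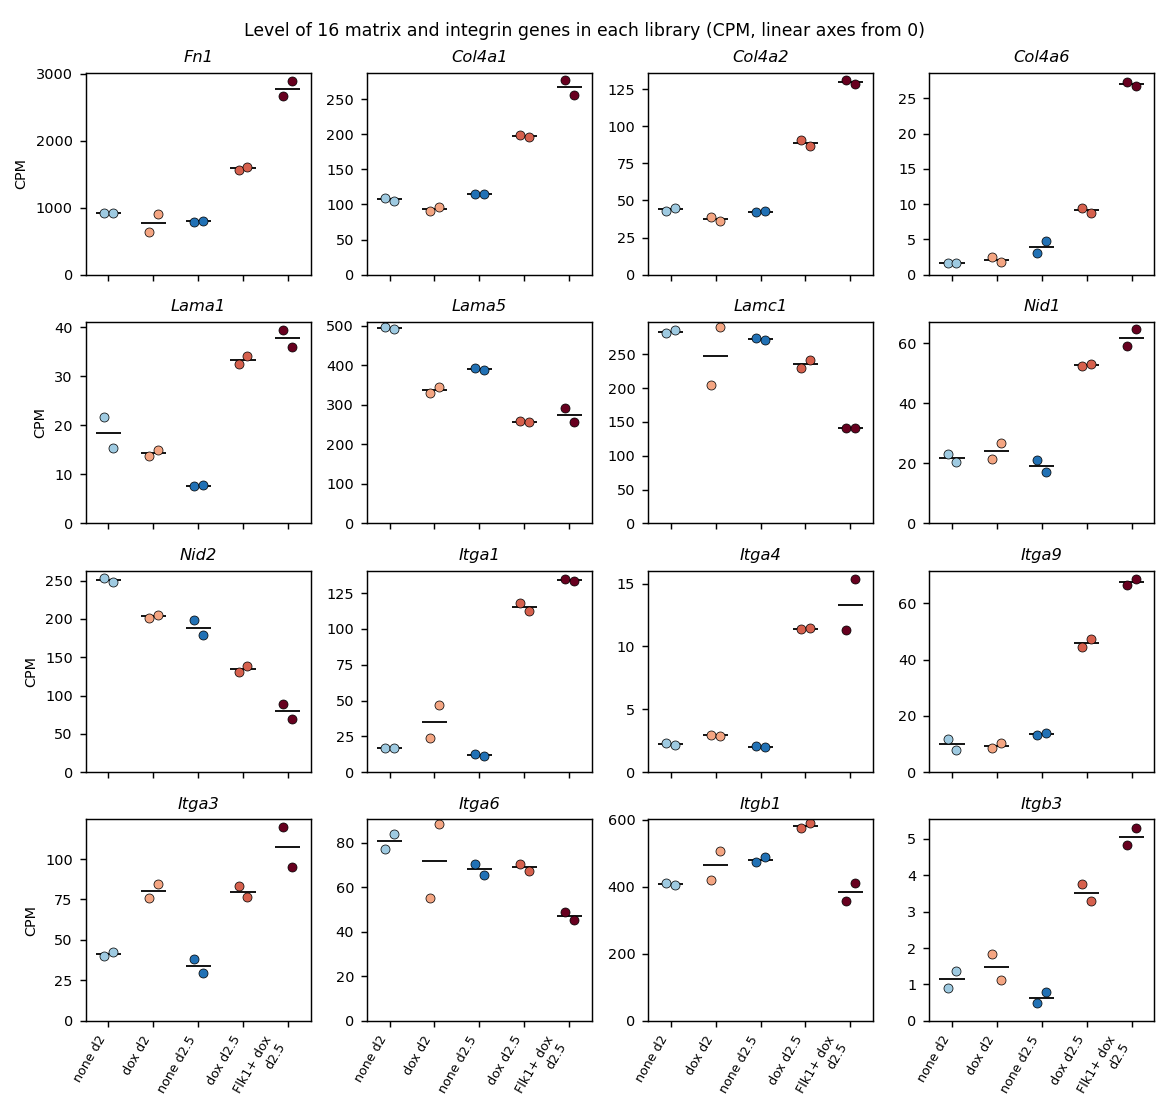
CPM of 16 genes in each library (linear axes from 0), with dots for libraries, lines for group means and 1 colour per group. Fn1, Col4a1, Col4a2, Col4a6, Itga9 and Itgb3 rise from untreated to treated to Flk1-positive libraries of day 2.5, though the second step of Itgb3 was not called. Nid2 falls in the same order, and Lama1, Nid1 and Itga1 are high in treated and Flk1-positive libraries alike. Lamc1, Itga6 and Itgb1 are lowest among these 3 groups in the Flk1-positive libraries.

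The extraembryonic endoderm also makes type IV collagen, laminin alpha1 and nidogen, so its markers were read beside these genes. The 16 listed genes, of which 12 were tested, summed to 118 to 124 CPM in untreated libraries of day 2.5, 204 to 221 with doxycycline and 342 to 343 in Flk1-positive ones. With doxycycline Sox7, Sox17, Gata6 and Dab2 were called higher and Foxa2 lower (33.3% and 8.33%, beside 16.1% and 13.8% of all genes). In Flk1-positive samples Sox7, Sox17 and Gata6 were higher and Foxa2, Rhox5 and Pth1r lower (25% and 25%). These last shares were near the 20.5% and 21.3% of all genes. The median log2 fold change of the 12 tested was 0.49 with doxycycline. In Flk1-positive samples it was -1.13, although the sum was higher there. Sox7, which endothelial progenitors also express, was 0.08702 and 0.414 CPM untreated, 52.2 and 58.9 with doxycycline and 156 and 152 in Flk1-positive libraries. Gata6, a regulator of primitive endoderm also found in mesoderm, was 20.02 and 15.9, 39.3 and 41.6 and 81.8 and 79.1 CPM, and Dab2, an endocytic adaptor, was 28.6 and 27.8, 52.1 and 51.8 and 42.4 and 55.1 CPM. Without Sox7 the list still summed higher in treated libraries, at 118 to 123 CPM untreated, 151 to 162 with doxycycline and 187 to 191 in Flk1-positive ones, and without Sox7 and Sox17 at 117 to 123, 142 to 151 and 142 to 153. At the other end of the list, Afp had 0 counts in all 6 libraries of day 2.5, and Ttr, Apoa1, Apoa4 and Thbd were at or below 0.522 CPM in them. The part of these markers in the matrix changes was not tested. Fibroblast and feeder-cell markers, 12 listed and 8 tested, summed to 50.2 to 58.8 CPM untreated, 36.4 to 43.7 with doxycycline and 26.7 to 28.3 in Flk1-positive libraries, with Lum at 0 in all 6 libraries of day 2.5 and Fap, Dcn and Postn at or below 0.174 CPM. With doxycycline 2 of the 8 were called higher and 1 lower (25% and 12.5%, beside 16.1% and 13.8% of all genes). Their median log2 fold change was 0.35, against the direction of the sum. In Flk1-positive samples 1 was higher and 4 lower (12.5% and 50%, beside 20.5% and 21.3% of all genes), with a median of -1.02.

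Fibrillar collagens, the rope-forming chains of connective tissue, were scarce and split. Of 11 tested, 4 rose with doxycycline at day 2.5 (Col5a2, Col11a1, Col11a2 and Col27a1) and 2 fell (Col2a1 and Col5a1). That is 36.4% and 18.2%, beside 16.1% and 13.8% of all genes, the share called lower being near the background. The Col11a1 call (0.49 ± 0.17, adjusted p = 0.0461) was lost in 12 of 18 alternatives, among them DESeq2's test (adjusted p = 0.0546), the removal of length and GC trends (0.079) and the omission of any 1 of the 4 libraries compared (0.114 to 0.264), and its lower call in Flk1-positive samples (-0.53 ± 0.18, adjusted p = 0.0236) was lost without any 1 of the 4 libraries compared (0.0637 to 0.153). Col5a2 was 1.08 and 1.53 CPM untreated and 3.45 and 2.88 with doxycycline at day 2. At day 2.5 Col5a2 was 0.392 and 0.373 CPM untreated, 4.83 and 5.08 with doxycycline and 19.6 and 17.8 in Flk1-positive libraries. Every treated library was above every untreated one, at both days. Its log2 fold change was 1.29 ± 0.27 (adjusted p = 0.0111) at day 2, 3.68 ± 0.31 (adjusted p = 2.36e-07) at day 2.5 and 1.91 ± 0.21 (adjusted p = 5.13e-06) between Flk1-positive and other treated samples, against a fall of 1.74 ± 0.37 between the untreated days (adjusted p = 0.00502; 0.0608 without untreated day 2 replicate 2 and 0.0579 without untreated day 2.5 replicate 2). The call at day 2 was lost when untreated day 2 replicate 1 was left out (adjusted p = 0.208) and when the other groups were left out of the fit (0.216). Its partner in type V collagen, Col5a1, went down: it was 33.7 and 34.4 CPM untreated and 30.8 and 27.8 with doxycycline at day 2. At day 2.5 Col5a1 was 31.3 and 32.9 CPM untreated, 22.6 and 17.8 with doxycycline and 12.5 and 8.05 in Flk1-positive libraries, and changed by -0.67 ± 0.17 (adjusted p = 0.00691) with doxycycline and by -0.96 ± 0.18 (adjusted p = 0.000554) in Flk1-positive samples. The first of these calls was lost without untreated day 2.5 replicate 2 (adjusted p = 0.0588) or doxycycline day 2.5 replicate 2 (0.111).

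Col2a1, the cartilage and notochord collagen, was 16.7 and 14.1 CPM untreated and 9.12 and 7.94 with doxycycline at day 2.5, then 4.58 and 5.14 in Flk1-positive libraries, a fall at both steps (-0.85 ± 0.16 and -0.82 ± 0.17). The type I and III chains of mesenchyme stayed low. Col1a1 was at 0.318 to 1.85 CPM in all 6 libraries of day 2.5 and not called there, and Col1a2 was 4.48 and 4.85 CPM in the other doxycycline samples and 8.01 and 6.57 in the Flk1-positive ones (0.65 ± 0.24, adjusted p = 0.0431), a call lost in 8 of 18 alternatives, among them each that left out 1 of the 4 compared libraries (adjusted p = 0.0599 to 0.242) or 1 of the 4 untreated ones (0.054 to 0.0551). Col3a1 had 27 counts over both other treated libraries and 0 over both Flk1-positive ones, which is at least 5.46-fold lower when 3 counts over the group are taken as the floor. That call was lost without Flk1-positive replicate 1 (adjusted p = 0.0698).

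Among the other collagens 22 were tested, and 8 rose with doxycycline at day 2.5 and none fell (36.4% and 0%, beside 16.1% and 13.8% of all genes). Col14a1, a fibril-associated collagen, was 3.38 and 2.29 CPM untreated and 3.16 and 5.62 with doxycycline at day 2. At day 2.5 Col14a1 was 2.35 and 3.398 CPM untreated, 14.3 and 15.7 with doxycycline and 35.5 and 37.5 in Flk1-positive libraries. Both Flk1-positive libraries were above all others (2.38 ± 0.25, adjusted p = 2.95e-06 with doxycycline, 1.28 ± 0.21, adjusted p = 0.000213 between Flk1-positive and other treated samples). Col13a1, a membrane-spanning collagen, was 2.05 and 1.87 CPM untreated and 7.88 and 6.99 with doxycycline at day 2.5, then 23.4 and 21.8 in Flk1-positive libraries (1.93 ± 0.24, adjusted p = 1.85e-05 and 1.60 ± 0.21, adjusted p = 2.15e-05). Col6a5, a chain of beaded type VI collagen, was 0.914 and 0.746 CPM untreated and 5.301 and 6.56 with doxycycline (2.83 ± 0.31, adjusted p = 4.6e-06), and the membrane collagen Col25a1 was 1.22 and 1.66 CPM untreated and 5.795 and 4.97 with doxycycline (1.90 ± 0.29, adjusted p = 0.000123). For each of these 4 genes the treated and untreated libraries of day 2.5 did not overlap. Col23a1, another membrane collagen, was 5.603 and 5.03 CPM in the other doxycycline samples and 13.1 and 15.1 in the Flk1-positive ones (1.40 ± 0.21, adjusted p = 9.02e-05). Col6a1, a second chain of type VI collagen, was lower in Flk1-positive libraries, at 1.401 and 2.77 CPM in the other doxycycline samples and 0.248 and 0.583 in the Flk1-positive ones, a call lost without their replicate 1 (adjusted p = 0.0565) or without doxycycline day 2.5 replicate 2 (0.0507). Col7a1, the anchoring fibril collagen, was 6.097 and 6.09 CPM in the other doxycycline samples and 13.1 and 11.1 in the Flk1-positive ones (0.995 ± 0.22, adjusted p = 0.00222).

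Col18a1, the basement membrane collagen whose end fragment is endostatin, was the most abundant collagen gene per kilobase in every group and moved little. It was 534 and 581.9 CPM untreated and 547 and 507 with doxycycline at day 2. At day 2.5 Col18a1 was 434 and 452 CPM untreated, 557 and 539 with doxycycline and 493 and 437 in Flk1-positive libraries. The call with doxycycline at day 2.5 (0.31 ± 0.09, adjusted p = 0.0162) was lost in 6 of 18 alternatives, the removal of length and GC trends (0.16) and of each of the 4 libraries compared (0.0556 to 0.182) among them. The lower call in Flk1-positive samples (-0.24 ± 0.09, adjusted p = 0.044) was lost in 8, including those without doxycycline day 2.5 replicate 1 (0.207) or 2 (0.124), without Flk1-positive replicate 2 (0.32) and without any 1 of the 4 untreated libraries (0.0541 to 0.0699). Col15a1, its relative in vessel walls, was at or below 0.785 CPM in every library and not called.

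Integrin alpha chains set which matrix a cell binds. Of the alpha chains that pass the filter on untreated libraries, Itga1, Itga3, Itga4 and Itga9 rose with doxycycline at day 2.5 and Itga8 fell. Itga1 pairs with Itgb1 as a receptor for collagen, type IV included, and for laminin. It was 16.5 and 16.9 CPM untreated and 23.7 and 46.5 with doxycycline at day 2. At day 2.5 Itga1 was 12.6 and 11.1 CPM untreated, 118 and 113 with doxycycline and 135 and 134 in Flk1-positive libraries. All treated libraries of each day were above the untreated ones of that day, and the Flk1-positive libraries were above the other treated ones by less than the test could call (0.22 ± 0.20). Itga1 rose 9.75-fold at day 2.5 (log2 fold change 3.29 ± 0.23, adjusted p = 2.22e-07) and by 1.07 ± 0.22 (adjusted p = 0.0145) at day 2. The call at day 2 was lost when untreated day 2 replicate 1 was left out (adjusted p = 0.136) or 2 (0.104) and when the other groups were left out of the fit (0.223). It made up 1.73% and 1.72% of integrin alpha chains per kilobase in untreated libraries of day 2.5 and 11.4% and 11% with doxycycline. Itga2, another collagen receptor chain, was tested only because of its treated libraries. It had 55 counts over both treated libraries of day 2.5 and 1 over both untreated ones, a ratio of 36.5 (exact 95% interval 6.28 to 1470, counting error only), and its call was lost without untreated day 2.5 replicate 2 (adjusted p = 0.0673).

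Itga4 binds fibronectin and Vcam1 and is carried by blood progenitors. It was 2.295 and 2.13 CPM untreated and 2.97 and 2.88 with doxycycline at day 2. At day 2.5 Itga4 was 2.05 and 2.03 CPM untreated, 11.4 and 11.4 with doxycycline and 11.3 and 15.4 in Flk1-positive libraries. The 4 treated libraries of day 2.5 were above the other 6, with a change of 2.48 ± 0.23 (adjusted p = 6.24e-07) with doxycycline and none called in the Flk1-positive comparison (0.22 ± 0.19). Itga9, a receptor for fibronectin variants and tenascin known from lymphatic vessels, was 11.8 and 7.91 CPM untreated and 8.403 and 10.3 with doxycycline at day 2. At day 2.5 Itga9 was 13.1 and 14.1 CPM untreated, 44.4 and 47.4 with doxycycline and 66.5 and 68.6 in Flk1-positive libraries. It was highest in Flk1-positive libraries (1.76 ± 0.16, adjusted p = 4.73e-07 with doxycycline, 0.56 ± 0.15, adjusted p = 0.00634 in Flk1-positive samples), and the second call was lost without doxycycline day 2.5 replicate 1 (adjusted p = 0.0658). Itga3, a laminin receptor chain, was the gene whose call at day 2 held under every alternative. It was 40.3 and 42.7 CPM untreated and 75.8 and 84.7 with doxycycline at day 2. At day 2.5 Itga3 was 38.3 and 29.4 CPM untreated, 83.5 and 76.4 with doxycycline and 120 and 94.9 in Flk1-positive libraries. All 6 treated libraries lay above the 4 untreated ones. It changed by 0.95 ± 0.14 (adjusted p = 0.000405) at day 2 and by 1.24 ± 0.14 (adjusted p = 4.62e-06) at day 2.5, and the further call in Flk1-positive samples (0.43 ± 0.13, adjusted p = 0.0161) was lost without doxycycline day 2.5 replicate 2 (adjusted p = 0.135) or Flk1-positive replicate 1 (0.232).
The stretches before the starts of 3 integrin genes are shown, 2 that rose with doxycycline at day 2.5 and Itgb5, which fell and whose window holds no GGAA. They are the minus strand of chr13:115101965-115102214 for Itga1 and the plus strand of chr2:79255176-79255425 for Itga4 and of chr16:33829415-33829664 for Itgb5 (GRCm38.p6, 5′ to 3′), each before the first exon, with GGAA or TTCC in capitals:
Itga1: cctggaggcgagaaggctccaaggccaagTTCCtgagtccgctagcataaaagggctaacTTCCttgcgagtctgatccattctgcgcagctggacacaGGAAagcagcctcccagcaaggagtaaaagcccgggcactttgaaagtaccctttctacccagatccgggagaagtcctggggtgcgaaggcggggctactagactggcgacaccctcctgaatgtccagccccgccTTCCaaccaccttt
Itga4: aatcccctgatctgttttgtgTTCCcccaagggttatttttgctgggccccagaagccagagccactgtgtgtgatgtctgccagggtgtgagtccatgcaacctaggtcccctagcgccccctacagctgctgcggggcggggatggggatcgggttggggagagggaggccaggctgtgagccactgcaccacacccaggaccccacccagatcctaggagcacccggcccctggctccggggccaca
Itgb5: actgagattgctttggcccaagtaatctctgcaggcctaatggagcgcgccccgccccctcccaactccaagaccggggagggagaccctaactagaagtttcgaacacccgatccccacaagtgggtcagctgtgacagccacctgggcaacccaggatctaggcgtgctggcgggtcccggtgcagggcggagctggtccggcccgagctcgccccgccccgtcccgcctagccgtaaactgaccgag

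Among the remaining alpha chains, Itga6 and Itga8 were lower and Itga5 was higher in Flk1-positive samples. Itga6, the laminin receptor chain also used as a stem cell marker, was 77.3 and 83.9 CPM untreated and 55.1 and 88.4 with doxycycline at day 2. At day 2.5 Itga6 was 70.6 and 65.4 CPM untreated, 70.5 and 67.5 with doxycycline and 48.9 and 45.2 in Flk1-positive libraries. It was not called with doxycycline at either day and was lower in Flk1-positive samples (-0.55 ± 0.16, adjusted p = 0.0121), a call lost without doxycycline day 2.5 replicate 1 (adjusted p = 0.0684) or Flk1-positive replicate 1 (0.0538) or 2 (0.0989). Its share of alpha chains per kilobase was 20.1% and 20.9% in untreated libraries of day 2.5, 14% and 13.6% with doxycycline and 7.77% and 7.82% in Flk1-positive ones. Itga5, the main fibronectin receptor chain, was 73.7 and 67.4 CPM untreated and 79.9 and 71.1 with doxycycline at day 2. At day 2.5 Itga5 was 67.6 and 57.3 CPM untreated, 62.1 and 64.1 with doxycycline and 100.1 and 90.3 in Flk1-positive libraries. It did not differ with doxycycline beyond its error and was higher in Flk1-positive samples (0.60 ± 0.11, adjusted p = 0.000424). Itga8, a chain that binds nephronectin and fibronectin, was 21.7 and 24.6 CPM untreated and 11.99 and 17.5 with doxycycline at day 2. At day 2.5 Itga8 was 19.9 and 20.8 CPM untreated, 10.2 and 10.1 with doxycycline and 3.88 and 6.41 in Flk1-positive libraries. It was lower with doxycycline at day 2.5 (-1.01 ± 0.20, adjusted p = 0.00143) and in Flk1-positive samples (-0.99 ± 0.22, adjusted p = 0.00248), the latter lost without Flk1-positive replicate 1 (adjusted p = 0.0665). Itgav, the alpha chain of vitronectin receptors, was at 50.4 to 68.6 CPM in the 6 libraries of day 2.5 and not called. Itga10, a collagen receptor chain of cartilage, was 0.3296 and 0.664 CPM in the other doxycycline samples and 2.81 and 2.12 in the Flk1-positive ones (2.31 ± 0.60, adjusted p = 0.00631), but 33.5% of its exon length overlaps another gene (Gm42957), and the call was lost without doxycycline day 2.5 replicate 1 (adjusted p = 0.0654) or Flk1-positive replicate 1 (0.0576). The other tested alpha chains, Itga7, Itga11, Itgae and Itgal, were at or below 1.80 CPM and not called in any comparison.

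Among 7 tested beta chains, Itgb1, Itgb3 and Itgb4 were called higher with doxycycline at day 2.5 and Itgb5 lower. That is 42.9% and 14.3%, beside 16.1% and 13.8% of all genes, the share called lower being near the background. Itgb3 is the vitronectin and fibrinogen receptor chain of platelets and activated endothelium. It was 0.9095 and 1.36 CPM untreated and 1.84 and 1.12 with doxycycline at day 2. At day 2.5 Itgb3 was 0.479 and 0.787 CPM untreated, 3.76 and 3.29 with doxycycline and 4.83 and 5.298 in Flk1-positive libraries. The 4 treated libraries of day 2.5 were above the other 6, a change of 2.46 ± 0.39 (adjusted p = 0.000191) with doxycycline and none called in the Flk1-positive comparison. Itgb1 was 411 and 404 CPM untreated and 420.3 and 507 with doxycycline at day 2. At day 2.5 Itgb1 was 474 and 487 CPM untreated, 576 and 589 with doxycycline and 357 and 411 in Flk1-positive libraries. It was lower in Flk1-positive than in other treated samples without overlap (-0.60 ± 0.10, adjusted p = 0.000219). Its higher call with doxycycline (0.28 ± 0.10, adjusted p = 0.0466) was lost in 11 of 18 alternatives, those without each of the 4 untreated, 2 Flk1-positive or 2 other doxycycline libraries of day 2.5 among them (adjusted p = 0.0797 to 0.217). Itgb4, the partner of Itga6 in hemidesmosomes, was 2.65 and 2.03 CPM untreated and 3.9 and 4.27 with doxycycline (0.80 ± 0.28, adjusted p = 0.0403), a call lost in 11 of 18, those without the same 8 libraries (0.0587 to 0.221), the removal of length and GC trends (0.0774) and DESeq2's test (0.053) among them. Itgb5, a partner of Itgav, was 85.7 and 80.3 CPM untreated and 79.5 and 73.9 with doxycycline at day 2. At day 2.5 Itgb5 was 103 and 89.4 CPM untreated, 60.3 and 64.6 with doxycycline and 48.3 and 50.7 in Flk1-positive libraries. It was lower with doxycycline at day 2.5 (-0.62 ± 0.10, adjusted p = 0.000195) and in Flk1-positive samples (-0.34 ± 0.10, adjusted p = 0.0141), the latter lost without doxycycline day 2.5 replicate 2 (adjusted p = 0.118) or Flk1-positive replicate 1 (0.106). Itgb7, a partner of Itga4 in lymphoid homing, was 0.549 and 1.07 CPM in the other doxycycline samples and 4.25 and 2.86 in the Flk1-positive ones (2.14 ± 0.46, adjusted p = 0.00175). Itgb8 was lower in Flk1-positive samples, and Itgb2, the leukocyte chain, was at or below 1.18 CPM and not called. Haematopoietic markers (10 listed, 9 of them in the table and 6 tested) summed to 6.57 to 7.38 CPM untreated, 188 to 203 with doxycycline and 663 to 684 in Flk1-positive libraries of day 2.5, and their part in the integrin changes was not tested.

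**Figure D4:**
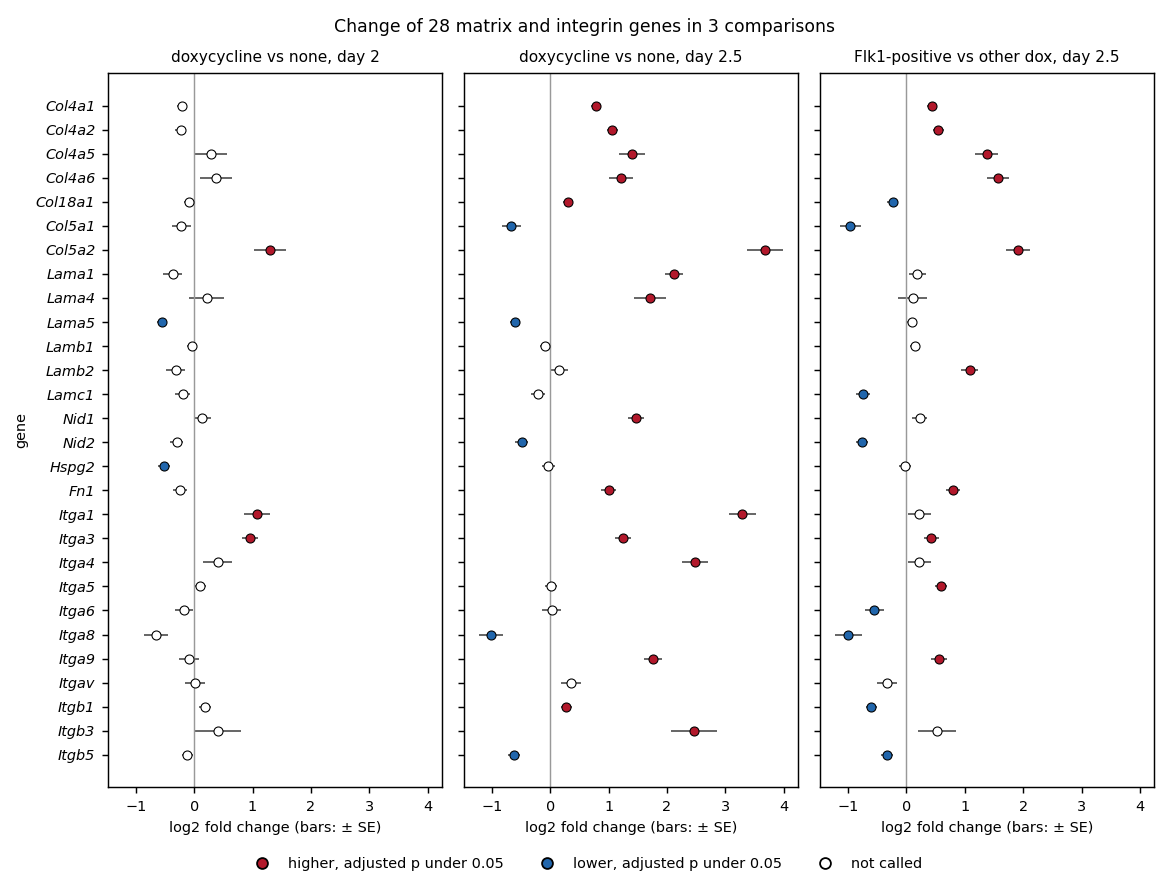
Log2 fold change ± SE of 28 genes in 3 comparisons (panels), filled red where called higher, blue where called lower and open where not called. Most genes lie near 0 at day 2, where Col5a2, Itga1 and Itga3 are called higher, and the widest changes with doxycycline at day 2.5 are those of Col5a2 (3.68), Itga1 (3.29), Itga4 (2.48) and Itgb3 (2.46).

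The machinery around these genes was read from 5 lists, each beside the shares of all genes called: 16.1% higher and 13.8% lower with doxycycline at day 2.5, and 20.5% higher and 21.3% lower in the Flk1-positive comparison. Collagen-processing enzymes and chaperones, 27 tested, were called higher in 2 cases and lower in 1 with doxycycline at day 2.5 (7.41% and 3.7%, median log2 fold change 0.06), and higher in 2 and lower in 10 in Flk1-positive samples (7.41% and 37%, median -0.33). Bmp1, the protease that trims procollagen ends, rose in both (1.42 ± 0.17, adjusted p = 1.25e-05 and 0.82 ± 0.16, adjusted p = 0.000754). In Flk1-positive samples the prolyl hydroxylase subunit P4hb (-0.76 ± 0.09, adjusted p = 1.29e-05), the lysyl hydroxylase Plod2 (-0.65 ± 0.12) and the crosslinker Loxl2 (-1.32 ± 0.27) were lower while Col4a1, Col4a2, Col4a5 and Col4a6 were higher. The collagen chaperone Serpinh1 was 115 and 113 CPM untreated and 152 and 145 with doxycycline at day 2.5 (0.38 ± 0.10, adjusted p = 0.00873), a call lost without untreated day 2.5 replicate 1 or 2 or doxycycline day 2.5 replicate 1.

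Other matrix glycoproteins, 27 tested, gave 7 higher and 3 lower calls with doxycycline at day 2.5 (25.9% and 11.1%), and 3 higher and 9 lower in Flk1-positive samples (11.1% and 33.3%). The share called lower with doxycycline was near that of all genes. Tgfbi, an adhesive protein with integrin-binding sequences, was 1.43 and 1.31 CPM untreated and 3.78 and 2.83 with doxycycline at day 2. At day 2.5 Tgfbi was 1.22 and 0.829 CPM untreated, 19.9 and 19.3 with doxycycline and 20.5 and 18.97 in Flk1-positive libraries (4.26 ± 0.23, adjusted p = 1.84e-09 at day 2.5). Egfl7, an endothelial matrix protein, was 22.6 and 26.5 CPM untreated and 107 and 108 with doxycycline at day 2.5, then 384 and 389 in Flk1-positive libraries (2.13 ± 0.11 and 1.85 ± 0.10). Ntn1, the laminin-like guidance protein netrin-1, fell at both steps (-1.67 ± 0.15 and -2.16 ± 0.18), and osteopontin (Spp1) was lower in Flk1-positive samples (-3.44 ± 0.39). 

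Matrix proteases and their inhibitors, 23 tested, were called higher in 12 cases and lower in 2 with doxycycline at day 2.5 (52.2% and 8.7%), and higher in 1 and lower in 7 in Flk1-positive samples (4.35% and 30.4%). The type IV collagenases Mmp9 and Mmp2 both rose at day 2.5 (3.07 ± 0.24 and 0.85 ± 0.10). Mmp9 was 2.04 and 3.22 CPM untreated and 18.03 and 20.1 with doxycycline at day 2. At day 2.5 Mmp9 was 1.96 and 3.07 CPM untreated, 23.3 and 19.2 with doxycycline and 29.3 and 22.3 in Flk1-positive libraries, and was also called at day 2 (2.88 ± 0.25, adjusted p = 2.65e-06). Adam12, a membrane protease that interacts with integrins, was 0.131 and 0.166 CPM untreated and 4.67 and 3.64 with doxycycline at day 2.5 (4.76 ± 0.52, adjusted p = 4.69e-06). The inhibitor Timp2 was higher with doxycycline (0.81 ± 0.14) and lower in Flk1-positive samples (-0.73 ± 0.14).

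Integrin adaptors, 23 tested, were called higher in 10 cases and lower in 2 with doxycycline at day 2.5 (43.5% and 8.7%), and higher in 8 and lower in 6 in Flk1-positive samples (34.8% and 26.1%, the latter near the share of all genes). Talin-1 (Tln1), which activates integrins, rose at both steps (0.57 ± 0.09 and 0.70 ± 0.09), as did Parvb of the integrin-linked kinase complex (0.69 ± 0.11 and 0.77 ± 0.11). Paxillin (Pxn) rose at day 2 (0.51 ± 0.10, adjusted p = 0.00704) and day 2.5 (1.08 ± 0.10, adjusted p = 8.27e-07), the first call being lost without untreated day 2 replicate 1 or 2 and when the other groups were left out of the fit. Zyxin (Zyx), a protein of mature adhesions under tension, was higher at day 2 (0.39 ± 0.08), lower at day 2.5 (-0.47 ± 0.08) and lower in Flk1-positive samples (-1.04 ± 0.09), and its call at day 2 was lost in the same 3 fits as that of Pxn. The adaptor Bcar1 and the kinase Ptk2b were lower in Flk1-positive samples too (-0.73 ± 0.08 and -1.44 ± 0.17). Non-integrin matrix receptors, 15 tested, gave 7 higher and 2 lower calls with doxycycline at day 2.5 (46.7% and 13.3%, the latter near the share of all genes), and 2 higher and 10 lower in Flk1-positive samples (13.3% and 66.7%). Among them syndecan-3 (Sdc3) rose at both steps (1.69 ± 0.12 and 1.07 ± 0.11), Cd47, an integrin partner, rose with doxycycline (1.39 ± 0.16), and the collagen receptor Ddr1 (-1.44 ± 0.10), syndecan-4 (Sdc4; -1.62 ± 0.21) and the tetraspanin Cd9 (-1.45 ± 0.16) were lower in Flk1-positive samples.

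The passage from day 2 to day 2.5 without doxycycline was compared in the untreated samples. Of the 73 genes, 4 were called higher (Col4a5, Col4a6, Col11a1 and Col25a1) and 9 lower (Lama1, Lama5, Nid2, Col18a1, Col1a1, Col2a1, Col5a2, Col6a5 and Itgb7), which is 5.48% and 12.3% beside 9.22% and 10.3% of all genes, shares near the background. Their median log2 fold change was -0.12 and that of all genes -0.02. Of the 9 called lower, Lama1, Col5a2, Col6a5 and Col18a1 were called higher with doxycycline at day 2.5. Lama5, Nid2 and Col2a1 were called lower with it as well, and Col1a1 and Itgb7 were not called. The untreated libraries of day 2.5 enter both comparisons, so these calls are not independent. The primitive streak markers, 9 tested, summed to 1298 to 1322 CPM at day 2 and 2664 to 3050 at day 2.5 in the untreated libraries. Their part in the changes between the untreated days was not tested. The number called lower was 1 without untreated day 2 replicate 2 or untreated day 2.5 replicate 2, 4 without untreated day 2 replicate 1, 5 without untreated day 2.5 replicate 1, and 14 without either or both doxycycline libraries of day 2, which enter only the estimate of spread. The number called higher was 1 without untreated day 2.5 replicate 2 and 7 without doxycycline day 2 replicate 2. Of the 13 calls, those of Lama1 and Col11a1 held under every alternative, and each of the other 11 was lost in 1 to 5 of 18.

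The effect of doxycycline at day 2.5 minus that at day 2 was tested as an interaction. It was called positive for 17 of the 73 genes and negative for 1, Itgb5, which is 23.3% and 1.37% beside 6.87% and 5.24% of all genes; the median was 0.47 for the 73 and 0 for all genes. The largest were those of Lama1 (2.49 ± 0.23, adjusted p = 3.54e-06), Col5a2 (2.39 ± 0.43), Itga1 (2.21 ± 0.32) and Itga4 (2.08 ± 0.34), and 11 of the 18 calls held under every alternative. The calls that did not were lost in 12 (Hspg2), 8 (Col13a1), 6 (Col11a2), 5 (Itgb3 and Itgb5), 3 (Lama4) and 1 (Col14a1) of 17 alternatives. Itga3 changed at both days and its interaction was not called (0.29 ± 0.19). For Lama1 and Col5a2, part of the interaction is the fall of the untreated level between the days given above. The negative count was 0 without untreated day 2 replicate 1 or 2, untreated day 2.5 replicate 1 or doxycycline day 2.5 replicate 1 or 2, and was 2 without doxycycline day 2 replicate 2.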

How the data were processed

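Total RNA of 10 libraries in 5 groups of 2 was sequenced. The table deposited by the authors holds raw counts for each gene. Per the submitters' processing notes, TopHat, HTSeq and DESeq2 were used with the build mm10. The annotation, tool versions, strand setting and treatment of multi-mapping reads were not given in the sources used here. The 92 spike-in entries, all at 0, were left out, and 4811 other entries had 0 counts in every library. Total counts per library were 18074070 to 36068329, and a count of 0 allows up to 3 counts.

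The fits used edgeR 4.0.16 (R 4.3.3) on the 14548 genes left by filterByExpr (at least 10 counts, total at least 15). After TMM scaling, robust quasi-likelihood fits gave each of the 5 groups its own mean over all 10 libraries (5 residual degrees of freedom; common coefficient of biological variation 0.1). The 5 comparisons used Benjamini-Hochberg adjustment over all genes and a threshold of 0.05, and the script was tested on simulated data. Each log2 fold change has the standard error implied by its F statistic, with n = 2 libraries a group. CPM use scaled library sizes, and values per kilobase use GENCODE exon lengths of GRCm38. Intervals and floors cover counting error only. Promoter sequences are from RefSeq (GRCm38.p6).

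Alternatives were DESeq2 size factors in edgeR, DESeq2's Wald test (1.42.0), no filter, only the compared groups, a replicate block, trends with exon length and GC content removed, the last pair together, each library left out in turn, where the lone library of a group is assumed to vary like the other groups, and, chosen after seeing the data, both doxycycline libraries of day 2 left out. The genes and lists were chosen with earlier results of these data known. Genes named were fixed basement membrane, fibrillar, fibronectin and integrin chains, per comparison up to 10 higher and 10 lower with the largest change among those called with at least 2 CPM in the higher group and no overlap between groups (overlap not considered for the interaction), all where a count was 5 or fewer, and up to 4 per list with the smallest adjusted p. Marker lists were endothelial, haematopoietic, primitive streak, pluripotent epiblast, extraembryonic endoderm, fibroblast and feeder, and smooth muscle, the last summing to 196 to 205 CPM in untreated, 167 to 172 in treated and 108 to 120 in Flk1-positive libraries of day 2.5. A single tested gene is counted in the totals and is not reported here by name.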

Additional observations from a re-analysis of the deposited data

Results flagged for a closer look

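These results were singled out because the effect of doxycycline differed between day 2.5 and day 2 by the interaction test in edgeR with Benjamini-Hochberg adjustment over all genes. Each value is the log2 fold change at day 2.5 minus that at day 2, from 2 libraries a group. Where a gene's untreated level also moved between the days, the difference holds that movement too.

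Among the basement membrane chains the difference was 2.49 for Lama1, 1.5 for Lama4, 1.33 for Nid1, 1.3 for Col4a2, 0.99 for Col4a1 and 0.48 for Hspg2. The call of Hspg2 was lost in 12 of 17 alternatives, with an adjusted p of 0.69 with length and GC trends removed, and that of Lama4 in 3 that each left out 1 library. Fn1 had a difference of 1.24. Among the other collagens it was 2.39 for Col5a2, 2 for Col11a2, 1.99 for Col6a5, 1.77 for Col14a1, 1.16 for Col13a1 and 1.16 for Col27a1. The call of Col13a1 was lost in 8 of 17 alternatives (adjusted p = 0.085 to 0.406) and its difference was 0.66 without untreated day 2 replicate 1; those of Col11a2 and Col14a1 were lost in 6 and 1. The integrin chains gave 2.21 for Itga1, 2.08 for Itga4, 2.06 for Itgb3, 1.85 for Itga9 and -0.51 for Itgb5, the only negative difference called among the 73 tested genes. The calls of Itgb3 and Itgb5 were each lost in 5 alternatives.

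Around the matrix and its receptors, the protease Adam12 had the widest difference named here, 5.04, and Mmp2 had 0.73. The glycoproteins gave 2.99 for Tgfbi, 1.82 for Egfl7 and -1.21 for Ntn1. The processing enzymes gave 1.32 for Loxl2 and 1.25 for Bmp1, and the inhibitor Timp2 gave 0.68. The adaptors gave 0.64 for Parvb, 0.56 for Pxn, 0.45 for Tln1 and -0.86 for Zyx, and the receptors Sdc3 and Cd47 gave 1.51 and 1.24. Of these calls, that of Tln1 was lost in 10 of 17 alternatives, those of Timp2 and Pxn in 8, that of Loxl2 in 7, that of Parvb in 4 and that of Adam12 in 1 (without untreated day 2 replicate 2, adjusted p = 0.0552). With length and GC trends removed, the differences of Tln1 and Pxn were 0.17 and 0.27.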

How the results depend on the processing

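The counts with doxycycline at day 2.5 (30 higher, 6 lower), in Flk1-positive samples (22 higher, 15 lower) and the positive interaction (17) stayed within 1.5 times under every alternative run, with ranges of 23 to 31, 5 to 8, 15 to 23, 10 to 19 and 12 to 22 when 1 library was left out. With doxycycline at day 2 the counts of 3 higher and 2 lower became 1 and 0 with only the compared groups fitted, the lower count 4 with the replicate block and length and GC trends removed, and the ranges without 1 library were 1 to 7 and 1 to 9. Between the untreated days, 4 higher and 9 lower became 7 higher with the replicate block and trends removed and 14 lower without both doxycycline libraries of day 2, with ranges of 1 to 7 and 1 to 14. The negative interaction count of 1 became 4 with trends removed and 5 with the block added, with a range of 0 to 2. Without doxycycline day 2 replicate 2, Itgav at day 2 turned to -0.42 (adjusted p = 0.0101) and the interaction of Lamc1 to 0.27 (0.0493); without replicate 1 they were 0.34 and -0.24. Neither was called in the fit of all libraries. In every other case a named gene that was called kept its direction. Causes were not tested.

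Same-numbered libraries did not deviate together (correlations of -0.03 to 0.1 over genes), so the numbers were not taken to pair samples. With the replicate block alone the counts were 3 and 3 at day 2, 30 and 6 at day 2.5, 22 and 15 in Flk1-positive samples, 4 and 9 between the untreated days, and 19 and 1 for the interaction. With 2 libraries a group, genes near 1 CPM could change without a call at this depth.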
